A study of Rattus norvegicus with 6 samples.

Results

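The enzymes that activate long-chain fatty acids and oxidize them were examined in whole adrenal gland of the spontaneously hypertensive rat (SHR) and of the Wistar-Kyoto rat (WKY), the related inbred strain with normal blood pressure that serves as its control. The set was fixed by gene name: 31 genes of the carnitine shuttle, the acyl-CoA synthetases and thioesterases, and mitochondrial and peroxisomal beta-oxidation, with the cytosolic carrier Fabp3 and the transcription factor Ppara. Of the 31 genes, 30 had at least 1 probe set, which gave 49 of the 8740 probe sets of the array after control probe sets were left out. Eci2 had none. Expression had been measured on 6 single-colour Affymetrix rat genome arrays, with 3 samples per strain. The labels give no age, sex or treatment. Whether the 3 samples of each strain were taken from different rats is not stated, so a p-value here weighs the strain difference against a spread that could be technical.

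Fatty acids enter oxidation as coenzyme A thioesters, made by acyl-CoA synthetases and split again by thioesterases. Long chains cross into mitochondria as carnitine esters, and each turn of the cycle then runs through a dehydrogenase, a hydratase, a second dehydrogenase and a thiolase, while peroxisomes shorten very long and branched chains. In the adrenal cortex the same acyl-CoA pools also serve the storage of cholesterol as esters for steroid synthesis, and Acsl4, a synthetase that prefers arachidonic acid, is a known product of steroid-making cells.

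The authors' scaled intensities had array medians from 801 to 881 in SHR and from 837 to 903 in WKY. The 3'/5' ratio of hexokinase, a measure of RNA degradation, stood at 4.21 in SHR replicate 2 and at 1.96 to 2.54 in the other arrays. The same ratio of GAPDH (0.947) and of beta-actin (1.35) in SHR replicate 2 lay within the range of the other arrays. SHR replicates 2 and 3 began hybridization in a later run than SHR replicate 1 and the 3 WKY arrays. Of 11 cortex markers listed, 8 had a probe set of their own, and their summed intensity was 452583 to 632934 in SHR and 485941 to 685637 in WKY. Of 10 medulla markers, 9 had one, at 42065 to 53446 in SHR and 56556 to 65269.8 in WKY. Of these 9 genes, 8 had a difference below 0 and 1 above (median -0.53, log2). Only Dbh was called, at -1.29 ± 0.15, while Th was at -0.023, Chgb at -0.081 and Ddc at 0.14. Summed markers of adipocytes (7 of 9 genes), leukocytes (6 of 8), fibroblasts and capsule (7 of 7) and red blood cells (3 of 4) were likewise lower in every SHR array than in any WKY array. Of the 6 tested adipocyte genes, 3 had a difference above 0 and 3 below. Only Cfd was called, lower in SHR at -1.999 ± 0.35 (limma adjusted p = 0.0324). Fabp4 was at -1.52 ± 0.52 (adjusted p = 0.235), and the largest difference above 0 was that of Lpl, at 0.38 ± 0.32. Summed markers of skeletal muscle (8 of 10) and smooth muscle (6 of 6) were higher, each mainly by 1 gene. Myh1, a fast myosin, read 5061, 4624 and 3919.5 in SHR and 3176, 1392 and 1561 in WKY by its brightest probe set, while the 5 tested skeletal muscle genes had a median difference of 0.062 (log2) with 3 above 0 and 2 below. Of the 4 tested smooth muscle genes, only Acta2 was called. Among the lists with lower sums, 4 of 7 tested fibroblast and capsule genes and 2 of 5 tested leukocyte genes were called, all lower in SHR. The median differences of these 2 lists were -1.0005 and -1.105 (log2), with 1 gene above 0 in each. Of the 3 tested red blood cell genes 0 were called. Over all tested genes 1.65% were called. The part of these cell types in the results was not tested, and in whole tissue fewer cells of a type cannot be told apart from less RNA per cell.

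No enzyme of fatty acid activation or oxidation passed the test between strains. Of the 49 probe sets, 41 were bright enough to be tested, and 0 were called higher and 0 lower in SHR at an adjusted p under 0.05 (limma, adjusted over all 5244 tested probe sets), where 1.95% of all tested probe sets were called, 1.07% higher and 0.877% lower. At an unadjusted p under 0.05, 8 of the 41 were higher, of a background of 6.77%, and 0 were lower, of a background of 7.11%. The 8 belonged to 7 genes: Decr1 (by 2 probe sets), Cpt2, Acaa2, Acsl4, Hadha, Acads and Slc25a20. With the hybridization run as a block, 1 of the 8 still had an unadjusted p under 0.05, beside Acadvl, which was lower. With 1 array left out, 2 to 6 of the 8 did, and 0 to 4 members had one in the lower direction, 4 of them without WKY replicate 3. All 3 SHR arrays stood over all 3 WKY arrays in 10 of the 41 (10.2% of all tested probe sets) and below them in 2 (10.5%), so 12 separated the strains in one direction or the other, where 20.7% of all tested probe sets did. Changes are given as SHR minus WKY on the log2(intensity + 181.5) scale, which understates the change of dim probe sets. They ran from -0.46 to 0.69 over the 41, and 0 reached a 2-fold difference, which 4.1% of all tested probe sets did.

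**Figure D1:**
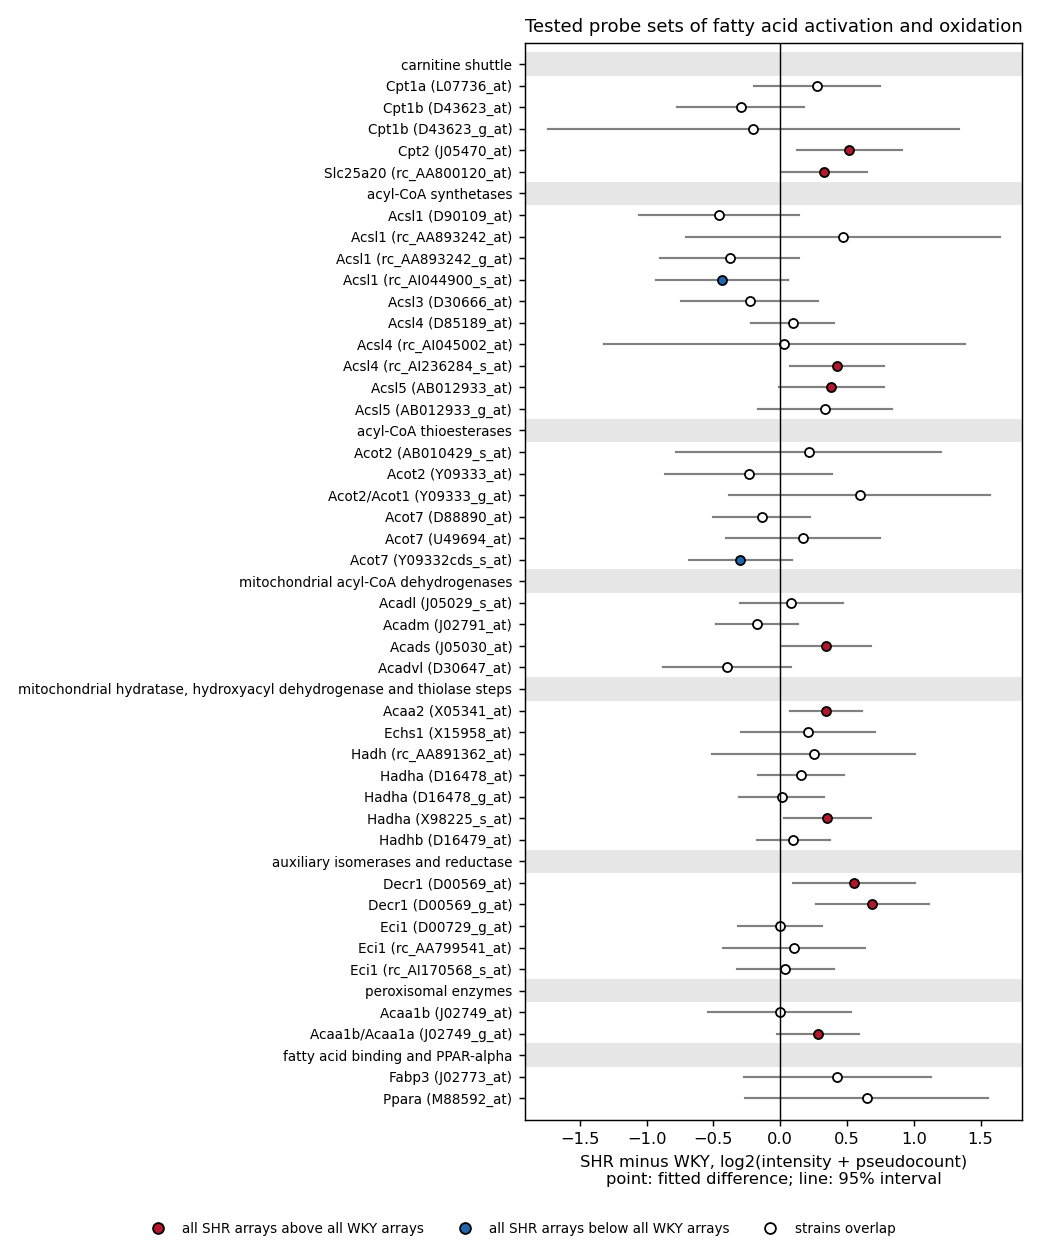
Difference between SHR and WKY adrenal glands for the 41 tested member probe sets, in log2 units, grouped by role. Points are limma's fitted differences and lines their 95% intervals. Red points mark the 10 probe sets whose SHR arrays all lay above the WKY arrays, blue points the 2 whose SHR arrays all lay below, and white points those that overlapped.

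With 1 probe set per gene, the brightest that was tested, 24 genes had a value of their own. Of these 0 were called by limma, where 1.65% of all genes were, and 6 had an unadjusted p under 0.05 (13% of all genes). There were 17 genes with a difference above 0 and 7 below, against 48.4% above 0 over all 3144 tested genes. Their median difference was 0.19, beside -0.0099 over all tested genes. It was 0.10 without WKY replicate 1, 0.12 without SHR replicate 3 and at most 0.23 with any other array left out. The members' median deviation from each gene's own mean was 0.025, 0.070 and 0.15 in SHR replicates 1 to 3 and -0.11, -0.015 and -0.10 in WKY replicates 1 to 3 (log2). The same medians over all tested genes were 0.049, 0.027 and -0.044 in SHR and -0.020, 0.018 and 0.053 in WKY. The members' medians were thus above 0 in every SHR array and below 0 in every WKY array, while those of all genes had both signs within each strain. Set against all genes, the members stood higher in SHR replicates 2 and 3. They stood lower in SHR replicate 1 (0.025 against 0.049) and in every WKY array. With the hybridization run as a block, where the contrast rests on SHR replicate 1, the members' median was 0.12 and that of all genes 0.041.

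**Figure D2:**
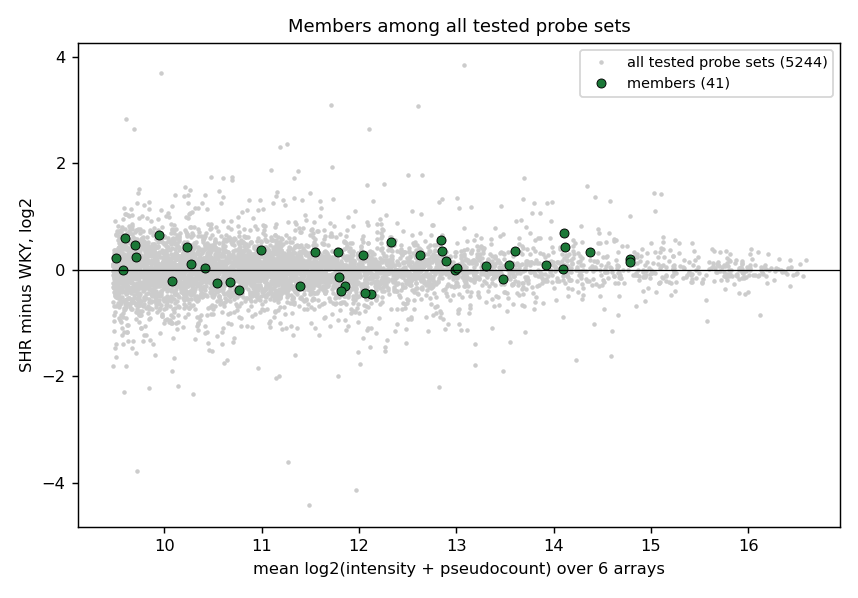
Difference between SHR and WKY (log2, vertical axis) against mean log2(intensity + pseudocount) over the 6 arrays (horizontal axis) for all 5244 tested probe sets (grey) and the 41 members (green). The members lie between -0.46 and 0.69, and the other tested probe sets reach further in both directions.

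Of the 4 genes of the carnitine shuttle, 0 passed the test, and 2, Cpt2 and Slc25a20, had SHR and WKY arrays that did not overlap. Cpt2, the inner-membrane palmitoyltransferase that turns acyl-carnitines back into acyl-CoA, had intensities of 5135, 6105 and 6766 in SHR and 3489, 4715 and 4232 in WKY. Every SHR array lay above every WKY array, and the difference was 0.52 ± 0.17 (SE; limma unadjusted p = 0.0166, adjusted p = 0.221). Slc25a20, the carrier that exchanges acyl-carnitine for carnitine across the inner membrane, had 3824, 3834 and 3703 in SHR and 3071, 3118 and 2765 in WKY. The groups did not overlap and were tight, with a difference of 0.33 ± 0.14 (unadjusted p = 0.0461, adjusted p = 0.345).

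Cpt1a, the liver-type enzyme that makes acyl-carnitines at the outer membrane, had 6855, 7640.0 and 5938 in SHR and 4177, 6905 and 5986 in WKY. The groups overlapped, and the difference of 0.27 had a 95% interval from -0.20 to 0.74. Cpt1b, the muscle-type isoform also found in brown fat, was measured by 2 probe sets that share a target. The brighter had 2885, 2971 and 3669.8 in SHR and 4734, 4293 and 2963 in WKY, a difference of -0.30 ± 0.21 with overlapping groups. The other was at -0.20 with an interval from -1.74 to 1.34, since WKY replicate 3 read 161 and WKY replicates 1 and 2 read 2316 and 1643.

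The difference of Cpt2 was smaller in the fits that took the run into account. With the run as a block it was 0.31 ± 0.24 (unadjusted p = 0.237), and that of Slc25a20 was 0.34 ± 0.21 (unadjusted p = 0.154). Cpt2 passed an unadjusted p of 0.05 in 4 of the 6 fits that left out 1 array, and Slc25a20 in 0.

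**Figure D3:**
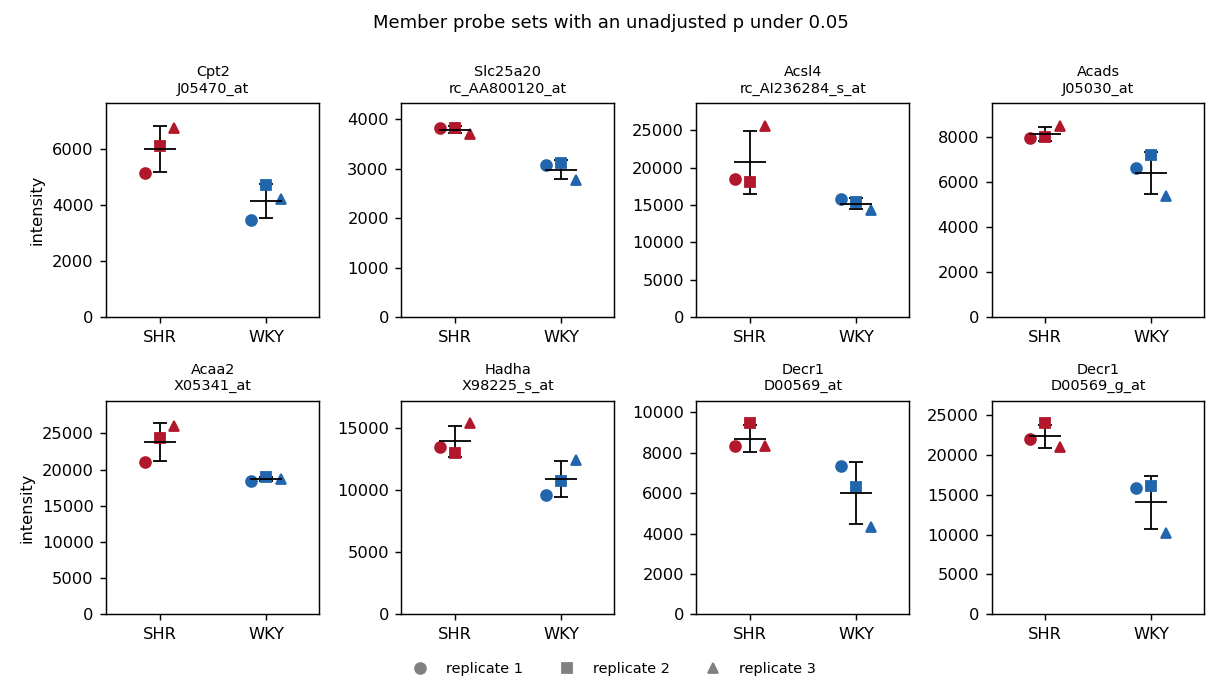
Deposited intensity of the 8 member probe sets with an unadjusted p under 0.05, by strain, with SHR on the left. Symbols mark the 3 replicates, black bars the mean and error bars the SD. In each panel the lowest SHR point is higher than the highest WKY point, and 0 of the 8 passed the adjusted threshold.

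Of the 5 long-chain acyl-CoA synthetases, which attach coenzyme A to fatty acids at different membranes, 4 were tested and 0 passed. By the brightest probe set 2 had a difference above 0 and 2 below. Acsl4, the arachidonate-preferring enzyme of steroid-making cells, had 18436, 18107 and 25509.7 in SHR and 15795, 15412 and 14353 in WKY by its brightest probe set (rc_AI236284_s_at). The groups did not overlap, SHR replicate 3 stood above the other SHR arrays, and the difference was 0.42 ± 0.15 (limma unadjusted p = 0.0246, adjusted p = 0.263). A second bright Acsl4 probe set (D85189_at) had 14570.1, 16273 and 16925 in SHR and 16495, 12866 and 15502 in WKY, and its groups overlapped. Its difference of 0.094 had an interval from -0.22 to 0.41, so the 2 probe sets of the gene did not give the same picture. The dimmest (rc_AI045002_at) was at 0.031 ± 0.59, with WKY replicate 1 at 272 and the other WKY arrays at 2041 and 2281.

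Acsl1, the main synthetase of liver, heart and fat, stood lower in SHR by 3 of its 4 probe sets. The brightest (D90109_at) had 3624, 4122 and 3216 in SHR and 7754, 4375 and 3825 in WKY. The groups overlapped, WKY replicate 1 stood well above the others, and the difference was -0.46 ± 0.26 (limma adjusted p = 0.472). A second probe set (rc_AI044900_s_at) had 3801, 3041 and 3725 in SHR and 6542, 4412 and 3839 in WKY. Its groups did not overlap, by a narrow margin, and its difference was -0.44 ± 0.21 (adjusted p = 0.414). The remaining pair were at -0.38 ± 0.23 and 0.47 ± 0.51. Left without SHR replicate 3 and WKY replicate 1, the brightest was at -0.078.

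Acsl5, a synthetase of intestine and liver found on mitochondria and endoplasmic reticulum, had 1985, 2327 and 2160.4 in SHR and 1492, 1864 and 1501 in WKY by one probe set (AB012933_at). The lowest SHR array exceeded the highest WKY array, at a difference of 0.38 ± 0.17 (limma unadjusted p = 0.0557). Its partner probe set was at 0.34 ± 0.22, with WKY replicate 3 inside the SHR range. Acsl3, which works at the endoplasmic reticulum and lipid droplets, was at -0.23 ± 0.22, and a second Acsl3 probe set was too dim to test. Acsl6, the brain isoform, read 60.9, 38.4 and 77.3 in SHR and 46.0, 24.6 and 43.5 in WKY, all below the pseudocount, and was not tested.

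The thioesterases, which release free fatty acid from acyl-CoA, gave 1 probe set without overlap. Acot7, the cytosolic enzyme abundant in brain, had 3 tested probe sets, at 0.17, -0.14 and -0.30. The last (Y09332cds_s_at) had 2296, 2074 and 2390.3 in SHR and 2464, 3279.6 and 2748 in WKY, with every SHR array below every WKY array (-0.30 ± 0.17; limma adjusted p = 0.467). The mitochondrial Acot2 had 2 probe sets of its own, at -0.24 ± 0.27 and 0.21 ± 0.43. A probe set shared by Acot2 and the cytosolic Acot1, near-identical genes that the array could not separate there, was at 0.59 ± 0.42, with SHR replicate 3 at 1451 and the other arrays between 309 and 795. The 1 probe set of Acot1 alone read 62.4 to 635 in SHR and 63.5 to 424 in WKY and was not tested.

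The mitochondrial acyl-CoA dehydrogenases, which take the first pair of electrons from chains of different length, went in both directions. The short-chain enzyme Acads had 7942, 7988 and 8482 in SHR and 6645, 7189.9 and 5396 in WKY. The groups did not overlap, at a difference of 0.34 ± 0.15 (limma unadjusted p = 0.0456, adjusted p = 0.344). The very-long-chain enzyme Acadvl had 2397, 2915 and 3703 in SHR and 4886, 3478 and 3651 in WKY. SHR replicate 3 lay inside the WKY range, and the difference was -0.40 ± 0.21 (unadjusted p = 0.0910, adjusted p = 0.438). With the run as a block, Acadvl was at -0.68 ± 0.28 (unadjusted p = 0.0437, adjusted p = 0.524).

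The medium-chain enzyme Acadm, the one whose deficiency is the common inherited defect of the pathway in humans, had 9688, 11091 and 10984 in SHR and 11357, 13611 and 11019.7 in WKY. Its groups overlapped narrowly, and its difference of -0.17 had an interval from -0.48 to 0.14. The long-chain enzyme Acadl had 10081, 10824 and 9912 in SHR and 9739, 11935 and 7816 in WKY. The SHR values lay inside the WKY range, with a difference of 0.082 and an interval from -0.30 to 0.47. A second Acadl probe set read 15.1 to 126.5 over the 6 arrays and was not tested.

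Of the 5 genes of the hydratase, hydroxyacyl dehydrogenase and thiolase steps, 0 passed the test. By the brightest probe set all 5 differences were above 0, where 48.4% of all tested genes were, but those of Echs1, Hadh and Hadhb were smaller than their standard errors. Without SHR replicate 3 and WKY replicate 1, Echs1 stood at -0.13 and Hadha at -0.014. Acaa2, a mitochondrial thiolase of the last step of the cycle, had 20993, 24305 and 26071 in SHR and 18358, 18912 and 18707 in WKY. The WKY arrays were nearly equal and all lay below SHR, with a difference of 0.34 ± 0.12 (limma unadjusted p = 0.0194, adjusted p = 0.236). With the run as a block it was 0.17 ± 0.16 (unadjusted p = 0.318).

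Hadha, the alpha subunit of the trifunctional protein that carries the hydratase and long-chain dehydrogenase activities, had 3 probe sets. The brightest (D16478_at) had 28525, 25519 and 35819 in SHR and 25529, 27351 and 27124 in WKY, with overlap and a difference of 0.15 ± 0.14. A second (X98225_s_at) had 13456, 12971 and 15345 in SHR and 9557, 10701 and 12445 in WKY, without overlap and at 0.35 ± 0.14 (limma unadjusted p = 0.0370, adjusted p = 0.317). The third was at 0.011, with an interval from -0.31 to 0.33. Hadhb, the beta subunit with the thiolase activity, had 11704, 12490.0 and 12171 in SHR and 12433, 10829 and 10755 in WKY. WKY replicate 1 lay inside the SHR range, and the difference of 0.098 had an interval from -0.18 to 0.37.

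The 2 enzymes of shorter chains were less precise. Echs1, the short-chain enoyl-CoA hydratase, was at 0.21 ± 0.22, with WKY replicate 1 at 18072 and the other arrays between 28298 and 33608. Hadh, the short-chain hydroxyacyl-CoA dehydrogenase, was at 0.25 ± 0.33.

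Decr1, the 2,4-dienoyl-CoA reductase needed to oxidize polyunsaturated fatty acids in mitochondria, had the largest difference among the tested members and the smallest p. Its brighter probe set (D00569_g_at) had 22017, 23938 and 21019.9 in SHR and 15810.3, 16084 and 10239 in WKY, a mean of 22325 ± 1483 in SHR and 14044 ± 3298 in WKY (SD, n = 3 each). Every SHR array lay above every WKY array, and the difference was 0.69 ± 0.18, a 1.61-fold ratio on this scale (limma unadjusted p = 0.00559, adjusted p = 0.127). The other probe set shares its target, so the 2 are not independent measures. It had 8339, 9454 and 8328 in SHR and 7346, 6320.2 and 4337 in WKY, without overlap, at 0.55 ± 0.20 (unadjusted p = 0.0237, adjusted p = 0.261). WKY replicate 3 was the lowest array in both.

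The brighter Decr1 probe set kept an unadjusted p under 0.05 in all 6 fits without 1 array, with differences from 0.48 to 0.80. With the run as a block it was at 0.67 ± 0.28 (limma unadjusted p = 0.0490, adjusted p = 0.543). Its adjusted p ran from 0.107 to 0.642 over the 19 other settings, and 0.107 was the lowest that any member reached in any of them. Eci1, the enoyl-CoA isomerase that handles double bonds at odd positions, had 3 tested probe sets at -0.0026, 0.038 and 0.10. Its brightest (rc_AI170568_s_at) read 7063 to 9881 in SHR and 7433 to 8619 in WKY, and the groups overlapped in all 3.

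The peroxisomal enzymes were mostly too dim to test. Acox2 and Acox3, the oxidases of branched chains, read 178 to 440.1 and 129 to 455 in SHR and 131 to 446 and 127 to 133 in WKY. Ehhadh, the peroxisomal bifunctional enzyme and a classic target of PPAR-alpha in rodent liver, read 281, 94.8 and 192 in SHR and 622, 508 and 94.6 in WKY. Its groups overlapped and it was not tested. A probe set shared by Acaa1a and Acaa1b, the peroxisomal thiolases, had 4638, 4469 and 4321 in SHR and 3782, 3740.2 and 3421 in WKY. The groups did not overlap, at 0.28 ± 0.13 (limma unadjusted p = 0.0681, adjusted p = 0.401), and which of the 2 genes gave the signal cannot be told. The probe set of Acaa1b alone was at -0.0031 ± 0.23, with 539.9 to 607 in SHR and 517 to 622 in WKY.

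Ppara, the fatty acid receptor that switches on many of these genes in liver, had 998, 1254 and 926 in SHR and 795, 1024 and 234 in WKY. WKY replicate 2 lay inside the SHR range and WKY replicate 3 far below it, and the difference of 0.65 had an interval from -0.26 to 1.56. Fabp3, the heart-type fatty acid binding protein, had 1064, 865 and 1904 in SHR and 1030.1, 637 and 945 in WKY. The groups overlapped with SHR replicate 3 standing apart, and the difference of 0.43 had an interval from -0.27 to 1.13.

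Brown fat, which burns fatty acids for heat and lies around the adrenal gland in rats, is a tissue the samples could hold. Of 4 brown adipocyte markers, 3 had a probe set, and their summed intensity was 4858 to 25182 in SHR and 7078 to 25592 in WKY. Ucp1, the uncoupling protein that defines brown fat, had 2197, 4468 and 15049 in SHR and 11472, 9626 and 2770.1 in WKY by its brighter probe set. It varied more within each strain than between them, and SHR replicate 3 and WKY replicate 1 were highest. Cidea, a lipid droplet protein of brown fat, had 1737, 2188 and 1999 in SHR and 5801, 3208 and 2091 in WKY.

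Cpt1b by its brighter probe set ranked the arrays in the same order as Ucp1 within each strain, and Fabp3 and Acadvl had the same highest array in each. So did both bright probe sets of Acsl4, the other probe set of Cpt1b and a dimmer one of Acsl1. Of the 41 tested members, 7 had the same highest array as Ucp1 in both strains, where 8.94% of all tested probe sets did, and 1 had the same full order (2.29%). The part of brown fat in the differences between strains was not tested. Without SHR replicate 3 and WKY replicate 1, an alternative chosen after these values were seen, 0 members were called and 3 had an unadjusted p under 0.05. They were both Decr1 probe sets, at 0.74 and 0.83, and the dimmest of Acsl4, at -0.81, while Cpt2 stood at 0.31.

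**Figure D4:**
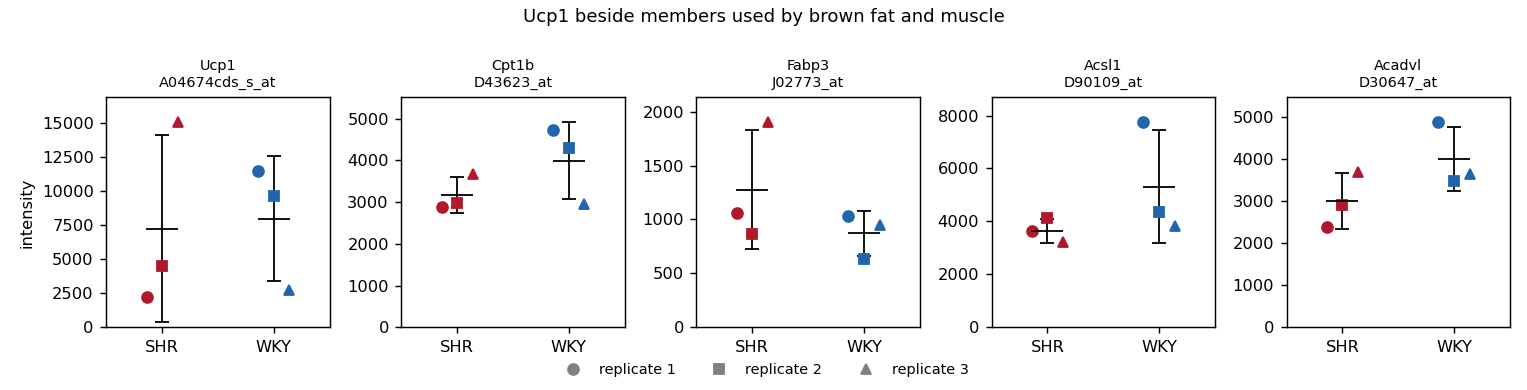
Deposited intensity of Ucp1 and of 4 members known from brown fat and muscle, by strain, with SHR on the left. Symbols mark the replicates, black bars the mean and error bars the SD. SHR replicate 3 (triangle) and WKY replicate 1 (circle) are the highest of their strain for Ucp1, Cpt1b, Fabp3 and Acadvl, and for Acsl1 in WKY.

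Other genes of fatty acid metabolism, taken from lists again with 1 probe set per gene, gave 3 calls. Over all 3144 tested genes 1.65% were called. The lists overlap, with Acat1, Acaca, Acacb and Cat in 2 lists each. Of 14 tested genes of other oxidation and uptake steps, 1 rose, 0 fell and 13 did not pass (median 0.022). Scp2, whose gene encodes both a lipid carrier and a peroxisomal thiolase, rose in SHR, at 7420.0, 7663 and 6984 there against 2314 (2313.8), 2383 and 2286 in WKY. Its difference was 1.59 ± 0.13 (limma adjusted p = 0.00104). Slc22a5, the carnitine transporter of the plasma membrane that supplies the shuttle, had 936, 497 and 516 (515.5) in SHR and 1860 (1859.7), 2225 and 1442 in WKY. All SHR arrays lay below the WKY arrays, at -1.31 ± 0.27 (adjusted p = 0.0584, so not called). The fatty acid transporter Cd36 was at -1.44 ± 0.35 (adjusted p = 0.0969) by the brighter of its own probe sets. Of 5 further probe sets annotated to Cd36 together with a second symbol, 4 were called lower in SHR (limma adjusted p from 0.000176 to 0.0194), and the 5 differences lay between -4.41 and -1.17. Dbi, which binds acyl-CoA esters, was at -0.52 ± 0.21 (adjusted p = 0.326).

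Of 14 tested partners and targets of PPAR-alpha, 0 rose, 1 fell and 13 did not pass (median -0.097). Ucp2, an uncoupling protein of many tissues and a target of fatty acid receptors, fell to 18412, 15631 and 15843 in SHR, against 35183, 36104 and 39164 (39163.5) in WKY. Its difference was -1.14 ± 0.11 (limma adjusted p = 0.00269). The 3 others of smallest p were Cat, the peroxisomal catalase, at 0.66 ± 0.23 (adjusted p = 0.249), Ppard at -0.30 ± 0.15 (adjusted p = 0.414) and Nr1h3 at -0.36 ± 0.21 (adjusted p = 0.493). A second tested probe set of Cat was at 0.10 ± 0.25, and the strains overlapped in both. Of 11 genes of fatty acid synthesis, 1 rose, 0 fell and 10 did not pass (median -0.080). Me1, the malic enzyme that supplies reducing power for synthesis, rose to 40578, 39803 and 34129.6 in SHR, against 12104, 19697 and 15390.5 in WKY, at 1.29 ± 0.18 (adjusted p = 0.0125). Elovl5, a fatty acid elongase, was at -0.73 ± 0.21 (adjusted p = 0.150), Scd, the stearoyl-CoA desaturase, at -1.12 ± 0.53 (adjusted p = 0.395) and Gpam, which starts glycerolipid synthesis, at 0.30 ± 0.21 (adjusted p = 0.572).

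Of 13 tested genes of peroxisome assembly and matrix, 0 rose and 0 fell (2 at an unadjusted p under 0.05 by limma), with a median of 0.010. Pex14, a docking protein of peroxisomal import, was at 0.66 ± 0.22 (adjusted p = 0.233). The 2 tested genes of ketone body metabolism, Bdh1 and Acat1, were at -0.084 and 0.17. With the run as a block, 1 of these other genes was called.

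**Figure D5:**
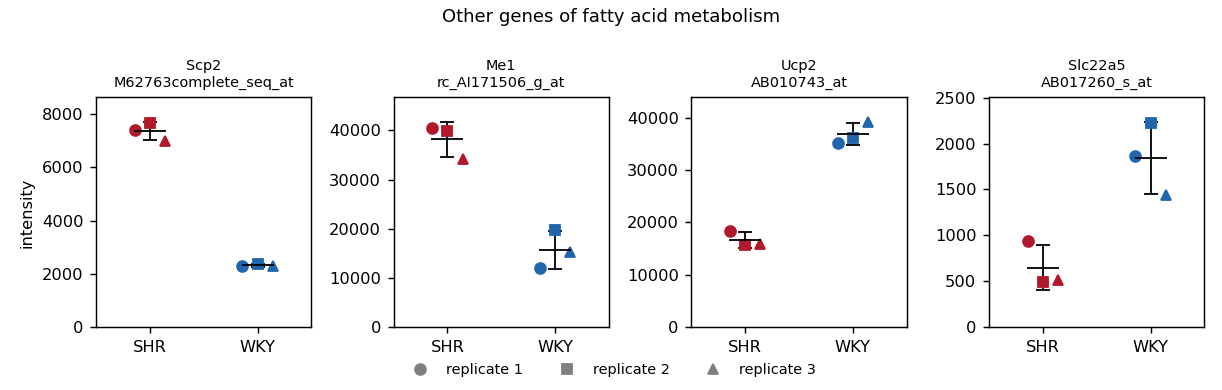
Deposited intensity of Scp2, Me1, Ucp2 and Slc22a5, genes of fatty acid metabolism outside the oxidation set, by strain, with SHR on the left. Symbols mark the replicates, black bars the mean and error bars the SD. Scp2 and Me1 were called higher and Ucp2 lower in SHR, and Slc22a5 missed the adjusted threshold at 0.0584.

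The promoters of the members were searched because PPAR-alpha with its partner RXR binds a direct repeat of AGGTCA with 1 base between the copies, called DR1, in several of these genes in liver. RefSeq windows of 250 bases before to 50 bases after the gene start (GRCr8 assembly) were at hand for 27 of the 31 genes. The named exceptions are Cpt1b, Decr1, Acaa2 and Acadl. DR1 with at most 2 mismatches, on either strand, was present in 3 of the 27 (11.1%) and in 3.71% of 27457 windows. The motif TNAAGGTCA, read by the estrogen-related receptors, was present in 0 of the 27 and in 1.15% of all windows. It overlaps the AGGTCA copies of DR1 by its last letters. The 3 matches are shown 5' to 3' on the gene's strand, with the match in capitals and 12 bases on each side.
Acadvl: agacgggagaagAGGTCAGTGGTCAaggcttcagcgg
Slc25a20: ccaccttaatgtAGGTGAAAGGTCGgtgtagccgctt
Echs1: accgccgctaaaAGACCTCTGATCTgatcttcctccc

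The Acadvl match (chr10:55236698-55236734, minus strand) had 1 mismatch and began 17 bases before the gene start. That of Slc25a20 (chr8:118243576-118243612, plus strand) had 2 mismatches and began 15 bases after the gene start. That of Echs1 (chr1:204333637-204333673, minus strand) had 2 mismatches, ran on the opposite strand to the gene and began 155 bases before the start. Their genes stood at -0.40 ± 0.21, 0.33 ± 0.14 and 0.21 ± 0.22 in SHR relative to WKY, so they did not share a sign. A match is a run of letters and no measure of binding.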

How the data were processed

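Whole adrenal gland RNA of SHR and WKY (3 samples each, grouped and numbered from the sample titles) had been read on single-colour Affymetrix rat arrays. Each array's table, as the authors deposited it, holds a linear intensity for every probe set. The arrays had been scaled: with the outer 2% trimmed at both ends, each averaged 2504. How the intensities were computed is not given in the sources used here. Station, fluidics module and hybridization start time were read from the headers of the deposited instrument settings, with 4 modules in use. Each array was then assigned here to 1 of 2 hybridization runs, split at a gap between start times on the same day. A run is thus a grouping made for these fits and not a recorded batch.

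Probe sets were named from the platform annotation, with symbols updated through the RefSeq gene table of GRCr8. After 59 control probe sets were left out, 7006 had 1 symbol, 308 several and 1426 none. A pseudocount of 181.5, the 20th percentile of values above 0, was added before taking log2, and probe sets above the 40th percentile of mean log2 were tested. Strains were compared with limma 3.58.1 in R 4.3.3 (lmFit, then eBayes fitted with a trend), two-sided, adjusted by Benjamini-Hochberg over all 5244, with a threshold of 0.05.

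The members and lists were chosen with earlier results of these data known. Values in every array were printed for members with an unadjusted p under 0.05, those whose strains did not overlap, and 13 genes named whatever their values. Of the other lists, called genes and up to 3 others of smallest p were named. The number of arrays limits the precision. The steps were tested on simulated data. Same-numbered arrays deviated together little (correlations of 0.00088, 0.0105 and 0.0712), and they were not treated as pairs in the main fit. So few arrays cannot show whether the replicate number marks a pair. The alternatives were other scalings, pseudocounts, filters and eBayes settings, the replicate number, run or module as a block, the first run alone, each array left out, and averaging over the probe sets of each gene.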

Additional observations from a re-analysis of the deposited data

How the results depend on the processing

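Under all 19 alternatives 0 member probe sets were called, and all tested members with a difference larger than its standard error kept their sign but 1, Hadha (D16478_at), which stood at -0.014 without the 2 arrays of highest Ucp1. In 48 further cases among 14 probe sets, a difference smaller than its standard error changed sign. Members at an unadjusted p under 0.05 numbered 8, all higher in SHR. There were 4 with eBayes without a trend (3 of them among the 8), 2 with run as the block (1 higher and among the 8, 1 lower), 0 when only the first run was used, 3 without the 2 arrays of highest Ucp1 (2 among the 8), and 3 to 9 with 1 array left out, the lowest without SHR replicate 3. With the module as a block there were 7, of which 4 were among the 8 and 2 were lower. That contrast rests on SHR replicates 2 and 3 against WKY replicates 1 and 2. These SHR arrays were all in run 2 and these WKY arrays all in run 1, so strain and run cannot be told apart in it. The members' median ran from 0.10 to 0.23 over these settings. The 102 calls over all probe sets became 60 without a trend, 53 with the replicate number as a block, 20 with run as the block, 1 when only the first run was used, 46 with the module as a block, 31 without the 2 arrays of highest Ucp1, and 36 to 59 with 1 array left out. The run and the first run rest on SHR replicate 1 alone, and each smaller fit holds fewer samples. With the replicate number as a block, 6 members had an unadjusted p under 0.05 by limma, all of them higher in SHR and among the 8. Calls among the other genes of fatty acid metabolism numbered 3 in the main fit, 1 with run as the block, and 2 to 3 with 1 array left out. These totals do not say which genes were called. By the mean of all tested probe sets of a gene 5 were called, with Slc22a5 (adjusted p = 0.0497 by limma) and Etfdh, whose probe sets disagree, beside Scp2, Ucp2 and Me1. The median of all probe sets moved by less than 0.1 under every scaling. In which direction any member differs by less than about its standard error cannot be read from 6 arrays.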

Other observations

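Etfdh, the dehydrogenase that passes electrons from beta-oxidation to the respiratory chain, was named here after its values were seen, because its 3 tested probe sets disagreed. One of them (rc_AI237007_at) read 36.7, 38.6 and 62.0 in SHR and 2526, 3286 and 3058 in WKY. It was called lower in SHR (limma adjusted p = 0.000249). Its SHR values all lay below the pseudocount, which sets the size of a log2 difference there, so none is given. The others pointed the other way. One (rc_AI176422_at) had 5157, 6789 and 6611 in SHR and 3522, 3873 and 4501 in WKY, a difference of 0.62 ± 0.17 without overlap (adjusted p = 0.134). The brightest (rc_AI176422_g_at) was at 0.14 ± 0.13, with overlap. The cause of the disagreement was not tested, and probe sequences were not used here.

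Cd36, the fatty acid transporter, was likewise followed further after its values were seen. The probe set rc_AA925752_at, annotated to Cd36 and to a second symbol, read 469, 312 and 569 in SHR and 13325, 15427 and 10751.5 in WKY. It fell by 4.41 ± 0.21 on the log2 scale (limma adjusted p = 0.000176). Both probe sets annotated to Cd36 alone had every SHR array below every WKY array, at -1.08 ± 0.32 and -1.44 ± 0.35, and did not pass the threshold. Of the 5 shared probe sets, 4 did. Which gene gives the signal of a shared probe set cannot be told from the array.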
